A study of Homo sapiens with 8 samples.

Results

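The input library of HCT116, a colon cancer cell line, was compared with the input libraries of Hep3B, DU145, and SW1990 cells. An input holds the RNA of the cell lysate before immunoprecipitation and therefore reports the transcriptome of the line. Genes were kept if at least 1 of these 4 inputs reached an FPKM (fragments per kilobase of transcript, scaled to 1000000 fragments mapped) of 1, which left 20367 of 57756 listed genes. Among them were 13493 genes that RefSeq lists as protein coding, 610 long noncoding RNAs (lncRNAs), and 6264 others. The HCT116 input itself reached 1 FPKM for 14762 genes, and for 597 of these it was the only input to do so.

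The study sequenced 1 input and 1 RPS6 RNA immunoprecipitation (RIP) library per cell line, 8 libraries in all, from cells with no treatment named in the labels. RPS6 is a protein of the small ribosomal subunit, so its RIP library holds RNA recovered with ribosomal subunits. Hep3B is a line of hepatocellular carcinoma, DU145 of prostate cancer, and SW1990 of pancreatic cancer. The liver cancer pair is titled 3B, but its cell line is entered as Huh7. Each group was therefore 1 library of 1 established line, and tumour type could not be told apart from the individual line. The RIP library of each line came from the same cells as its input and was used as a second look at every gene, and is not an independent replicate.

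HCT116 is a widely used model of colorectal cancer with microsatellite instability. Colonic epithelial cells are specified by transcription factors of the CDX, HNF, and GATA families, and their stem cells are maintained by Wnt signalling through beta-catenin and TCF factors. Mismatch repair proteins correct replication errors, p53 induces genes that stop the cell cycle or start apoptosis, and the RAS-MAPK pathway carries growth factor signals to the nucleus.

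Inputs held between 35796276 and 54209591 fragments, and HCT116 held 45572116. Hep3B and HCT116 were deposited in a table of their own, and DU145 and SW1990 in another that had been scaled separately. Over the 20367 genes, the HCT116 input was most like the SW1990 input (Pearson r = 0.863 on log2(FPKM + 1)), followed by DU145 (r = 0.846) and Hep3B (r = 0.762), and its r with its own RIP library was 0.872. These correlations run across genes, which are not independent replicates, and share library depth and base composition.

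The labels were checked against marker genes before any comparison was made. HCT116 expressed the epithelial genes EPCAM (111 FPKM) and KRT19 (570.3 FPKM) but little of the intestinal program. VIL1, the brush border protein villin, was at 0 FPKM in the HCT116 input, CDH17, an intestinal cadherin, was at 0.0242, and ASCL2, a transcription factor of intestinal stem cells, was at 0. CDX2, the homeobox factor of intestinal identity, was at 6.25 FPKM in HCT116, 0.374 in Hep3B, 0 in DU145, and 86.6 in SW1990. The library labelled SW1990 thus had the highest CDX2 of the 4, and it also had the highest ASCL2 (153 FPKM), AXIN2 (146 FPKM), and CDH17 (2.97 FPKM). The same library was highest for these 4 genes among the RIP libraries. Over whole lists Hep3B led instead. Of 22 intestinal transcription factors that reached 1 FPKM in any input, Hep3B was highest for 13, SW1990 for 7, HCT116 for 2, and DU145 for 0. Of 15 intestinal surface and secreted products, the counts were 6, 5, 2, and 2 in the same order. Of 18 pancreatic markers 9 were members, and SW1990 reached 1 FPKM for 8 of them, against 5 in HCT116, 5 in DU145, and 2 in Hep3B. SW1990 was highest for 3 of the 9, among them LCN2 and MSLN (24.7 and 10.6 FPKM), while their FPKM summed to 52.4 in SW1990, 90.2 in HCT116, and 236 in DU145. Of 7 prostate markers among the members, DU145 was highest for 3 and reached 1 FPKM for 4, HCT116 was highest for 1 and reached it for 5, and KLK3, which encodes the prostate antigen PSA, was at 0 in DU145. Counts that rest on SW1990 are therefore also given without it. None of 20 hepatocyte markers reached 1 FPKM in HCT116, where their FPKM summed to 2.47, and all 20 reached it in Hep3B.

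**Figure D1:**
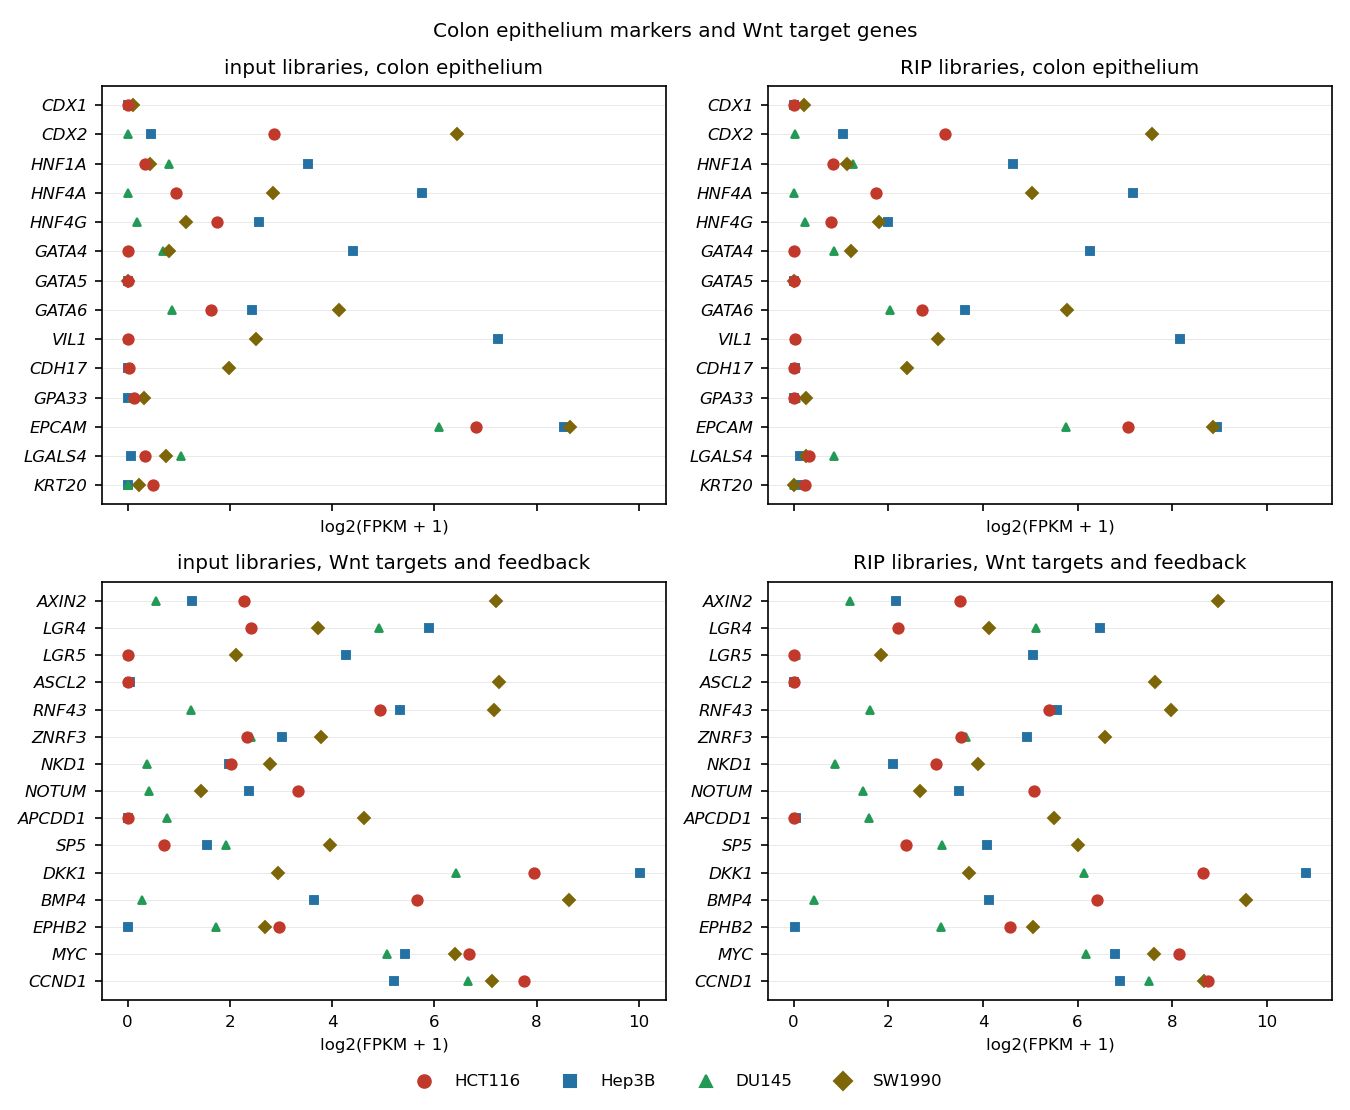
Level of 14 markers of colonic epithelium (top) and 15 Wnt target and feedback genes (bottom) in the input libraries (left) and RIP libraries (right), as log2(FPKM + 1), 1 point per library. The library labelled SW1990 lies right of HCT116 for CDX2, CDH17, AXIN2, ASCL2, and RNF43 in both library types, while HCT116 is highest for MYC, CCND1, NOTUM, and EPHB2 in the inputs.

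HCT116 had fewer genes above the other lines than any of them had, and more below than DU145 or SW1990. A gene was counted as outside the other lines if its log2(FPKM + 1) in HCT116 lay at least 1 above the highest or below the lowest of the other 3 inputs, that is, at least 2-fold on the FPKM + 1 scale, which understates the difference of weakly expressed genes. By this rule 690 genes (3.39%) were above and 603 (2.96%) below. The same rule gave 1947 above and 1205 below for Hep3B, 1271 and 356 for DU145, and 1308 and 449 for SW1990. HCT116 was the highest of the 4 inputs for 3387 genes (16.6%) and the lowest for 5117 (25.1%), and its median difference from the mean of the other 3 was -0.21 on this scale. Rescaling each library to the same summed FPKM moved that median to -0.10, so small differences are read against it. These counts depend on which lines are compared: without Hep3B they were 942 above and 1143 below, without DU145 1201 and 1137, and without SW1990 1400 and 1432. Without Hep3B, HCT116 was the highest of the remaining inputs for 4700 of the 20367 genes and the lowest for 7305. It was highest for 5023 and lowest for 6727 without DU145, and for 5751 and 7100 without SW1990. Leaving out a line thus raised the counts over all genes, and counts of a gene list without a line are read against these. Protein-coding genes contributed 474 above and 369 below, and lncRNAs 13 and 23.

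The RIP libraries placed most of these genes on the same side. Of the 690 genes above, 550 (79.7%) were also highest in the HCT116 RIP library and 380 were again at least 2-fold above. Of the 603 genes below, 466 (77.3%) were lowest in the RIP library and 244 at least 2-fold below. Over all 20367 genes, HCT116 was highest in 18.2% and lowest in 24.4% of the RIP comparisons, and at least 2-fold outside in 3.67% and 3.38%. For protein-coding genes the shares on the same side were 92.4% above and 90.5% below.

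**Figure D2:**
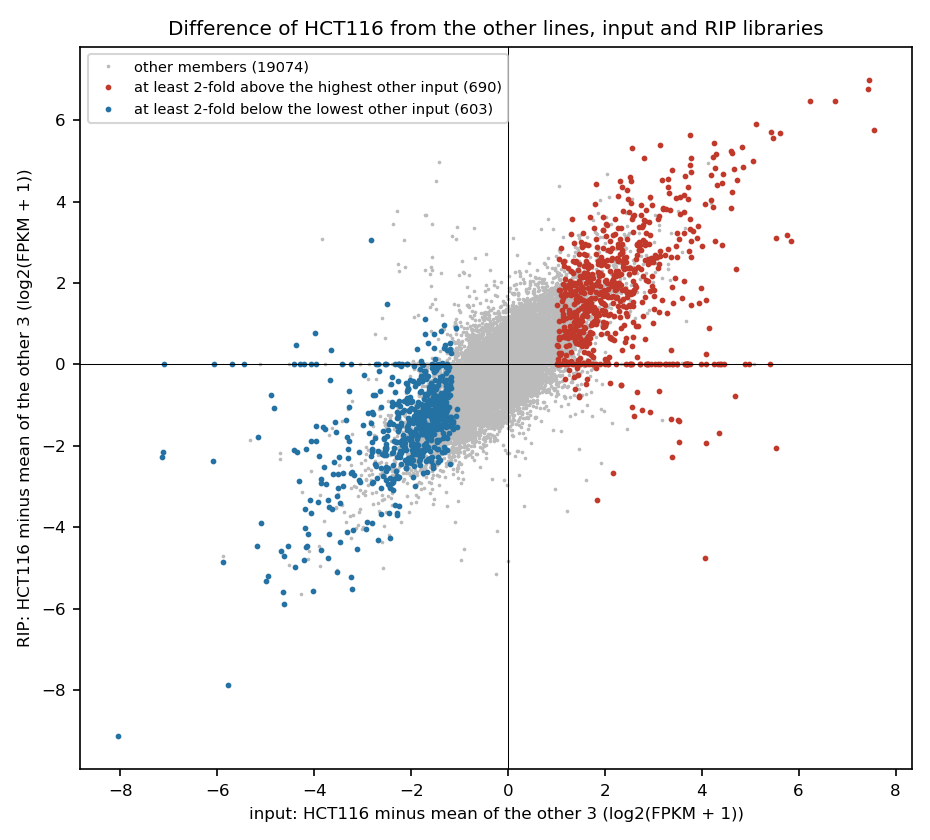
Difference of HCT116 from the mean of the other 3 lines in the input libraries (x axis) and the RIP libraries (y axis), both in log2(FPKM + 1), with 1 point per gene for 20367 genes. The 690 genes above the other inputs (red) lie mostly in the upper right and the 603 below (blue) mostly in the lower left.

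With 1 library against 3, an exact permutation test cannot give a p below 0.25, and edgeR's quasi-likelihood test had to assume that HCT116 varies as the other 3 lines vary among themselves. It called 0 genes higher and 0 lower of 20199 tested, with a lowest adjusted p of 0.999. At an unadjusted p under 0.05 it gave 335 higher (1.66%) and 281 lower (1.39%). DESeq2 called 90 genes higher (0.446%) and 476 lower (2.36%), and limma on the 4 inputs called 0 (448 higher and 275 lower at an unadjusted p under 0.05). Of the 90 genes called higher by DESeq2, 86 were members and all 86 were highest in HCT116, whereas of its 459 members called lower only 249 were lowest in HCT116. In the RIP libraries edgeR also called 0 of 19119 genes in each direction, with 314 higher (1.64%) and 242 lower (1.27%) at an unadjusted p under 0.05, and DESeq2 called 70 higher (0.366%) and 451 lower (2.36%). A further fit used the RIP libraries as second observations of each line, which leaves HCT116 a single line. This limma fit of all 8 libraries took the cell line as a random block (correlation 0.722). Only its log2 differences are read as results, since input and RIP came from the same cells and are not replicates. The genes concerned were among those with the smallest p in this fit. All other values are descriptions of single libraries.

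The genes furthest above the other lines included genes of the germ line and of blood. Here and below, protein-coding genes and lncRNAs furthest outside were also chosen to be on the same side in the RIP libraries. Their side there was fixed by that choice. MAGEB2, a cancer-testis antigen on the X chromosome (X:30233676-30238206, hg19), had 107 FPKM in the HCT116 input and 0 in Hep3B, DU145, and SW1990. Its 8524 fragments were at least 2232-fold more, per 1000000 fragments, than a floor of 3 fragments per library would allow in the others. Its level in the HCT116 RIP library was 87.4 FPKM, and it was again at 0 in the other 3. MAGEB2 had a log2 difference of 6.61 in the 8-library fit. It reached the minimum of 1 FPKM through the HCT116 input alone, so its side was fixed by that choice. RefSeq's sequence of the 250 bases before its start on GRCh38.p14 (X:30215313-30215562, plus strand) is shown because the gene was detected in HCT116 alone. It held 15 CpG dinucleotides, printed in capitals, against a median of 11 in the promoter table, and 42.7% of 27305 promoters held at least 15.
MAGEB2 upstream: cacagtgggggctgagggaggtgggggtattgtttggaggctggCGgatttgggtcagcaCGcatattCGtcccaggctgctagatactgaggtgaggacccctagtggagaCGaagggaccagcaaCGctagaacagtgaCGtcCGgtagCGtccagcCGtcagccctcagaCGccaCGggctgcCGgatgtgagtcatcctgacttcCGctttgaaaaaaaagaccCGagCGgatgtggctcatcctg

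HBE1, the embryonic epsilon chain of haemoglobin, had 189 FPKM in the HCT116 input, 0.211 in Hep3B, 0 in DU145, and 0.0554 in SW1990. It had 127 FPKM in the HCT116 RIP library and 0 in the other 3. The ratio over Hep3B was 898, and the log2 difference in the 8-library fit was 7.23. HBE1 too reached the minimum of 1 FPKM through the HCT116 input alone. HBE1 lies in the beta-globin region of chromosome 11, and the deposited locus of the gene (11:5274419-5667019) is shared with the neighbouring olfactory receptor genes. Those genes were also above the other lines. OR51B4, a receptor of the olfactory family, had 45.0 FPKM in HCT116 and 0 in the others, OR51B2 had 16.02 and 0, and OR51B5 had 14.4 and practically 0. Of 92 listed genes of the OR51 and OR52 families, which in sensory neurons detect odorants, 13 reached 1 FPKM in any input. These passed the minimum through HCT116, the other inputs being close to 0, so their side was fixed by that choice. The fetal globin gene HBG2 had 5.30 FPKM in HCT116 and at most 0.212 elsewhere. How fragments were divided between these overlapping genes is not known, so their levels cannot be separated from each other.

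GTSF1, a factor of the piRNA pathway in germ cells, had 219 FPKM in HCT116, 1.03 in Hep3B, and 0 in DU145 and SW1990. Its log2 difference in the 8-library fit was 7.11. M1AP, a gene of male meiosis, had 18.4 FPKM in HCT116 and 0 in the other 3, at least 345-fold more than the floor allows. M1AP too reached the minimum of 1 FPKM through the HCT116 input alone. MAGEA2 and MAGEA3, cancer-testis antigens like MAGEB2, had 17.9 and 43.7 FPKM in HCT116, 1.92 and 10.2 in Hep3B, and at most 0.0219 in the other 2 lines. These 3 MAGE genes were the ones at least 2-fold above among 11 cancer-testis genes that reached 1 FPKM in any input, of which HCT116 was highest for 4 and lowest for 1. Over all genes 16.6% were highest, 25.1% lowest, and 3.39% at least 2-fold above.

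Several receptors and carriers were also among the genes with the largest gaps above the other lines. Those named here reached the minimum of 1 FPKM through the HCT116 input alone, so their side was fixed by that choice. NTSR1, the receptor of the gut peptide neurotensin, had 39.5 FPKM against at most 0.258, and SLC38A5, a carrier of neutral amino acids, had 22.9 against at most 0.349. GPR110, an adhesion receptor, had 16.6 FPKM against at most 0.137. CD163L1, a scavenger receptor, had 60.1 FPKM in the input but 8.40 in the RIP library, while NTSR1 had 93.9 and SLC38A5 56.9 FPKM there. The RIP level was thus above the input level for NTSR1 and SLC38A5 and below it for CD163L1.

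Enzymes and structural proteins completed the list. CYP24A1, the enzyme that inactivates vitamin D, had 212 FPKM in HCT116, 0.885 in Hep3B, 10.7 in DU145, and 0.0468 in SW1990, a ratio of 19.9 over DU145. ALDOC, a glycolytic aldolase, had 66.8 FPKM against 1.26 to 2.31, with a log2 difference of 4.73 in the 8-library fit. KLK8, a secreted serine protease, had 33.0 FPKM in HCT116, 1.11 in DU145, and 0 in the other 2. The genes were chosen for the largest gaps, so a gap above every other line was fixed by that choice. SYTL3, which takes part in vesicle traffic, had 39.99 FPKM against at most 0.680. EMP1, an epithelial membrane protein, had 51.6 FPKM against at most 2.80, TPM2, a tropomyosin of the actin cytoskeleton, had 38.9 against at most 2.01, and TRIM72, a membrane repair protein of muscle, had 12.7 against 0. The same choice fixed the side of SYTL3, EMP1, TPM2, and TRIM72. WNT16, a secreted Wnt ligand, had 68.4 FPKM in HCT116, 1.85 in SW1990, and 0 in Hep3B and DU145, and its RIP levels were 69.1, 1.53, 0, and 0 FPKM in the same order.

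The 5 lncRNAs furthest above were weaker, with 1 exception. UCA1, an lncRNA first described in urothelial carcinoma, had 64.4 FPKM in HCT116, 5.88 in Hep3B, 0 in DU145, and 3.19 in SW1990. C22orf34, C1orf61, and C6orf223 had 8.58, 7.92, and 8.62 FPKM in HCT116 and at most 0.465 in any other line. VCAN-AS1 had 4.21 FPKM from 46 fragments, too few for the test. These lncRNAs other than UCA1 reached the minimum of 1 FPKM through the HCT116 input alone. RNU6-358P, a pseudogene of the U6 small nuclear RNA, had 23.6 FPKM in HCT116 and 0 elsewhere, so it reached the minimum through HCT116 alone. Its log2 difference in the 8-library fit was 4.91.

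**Figure D3:**
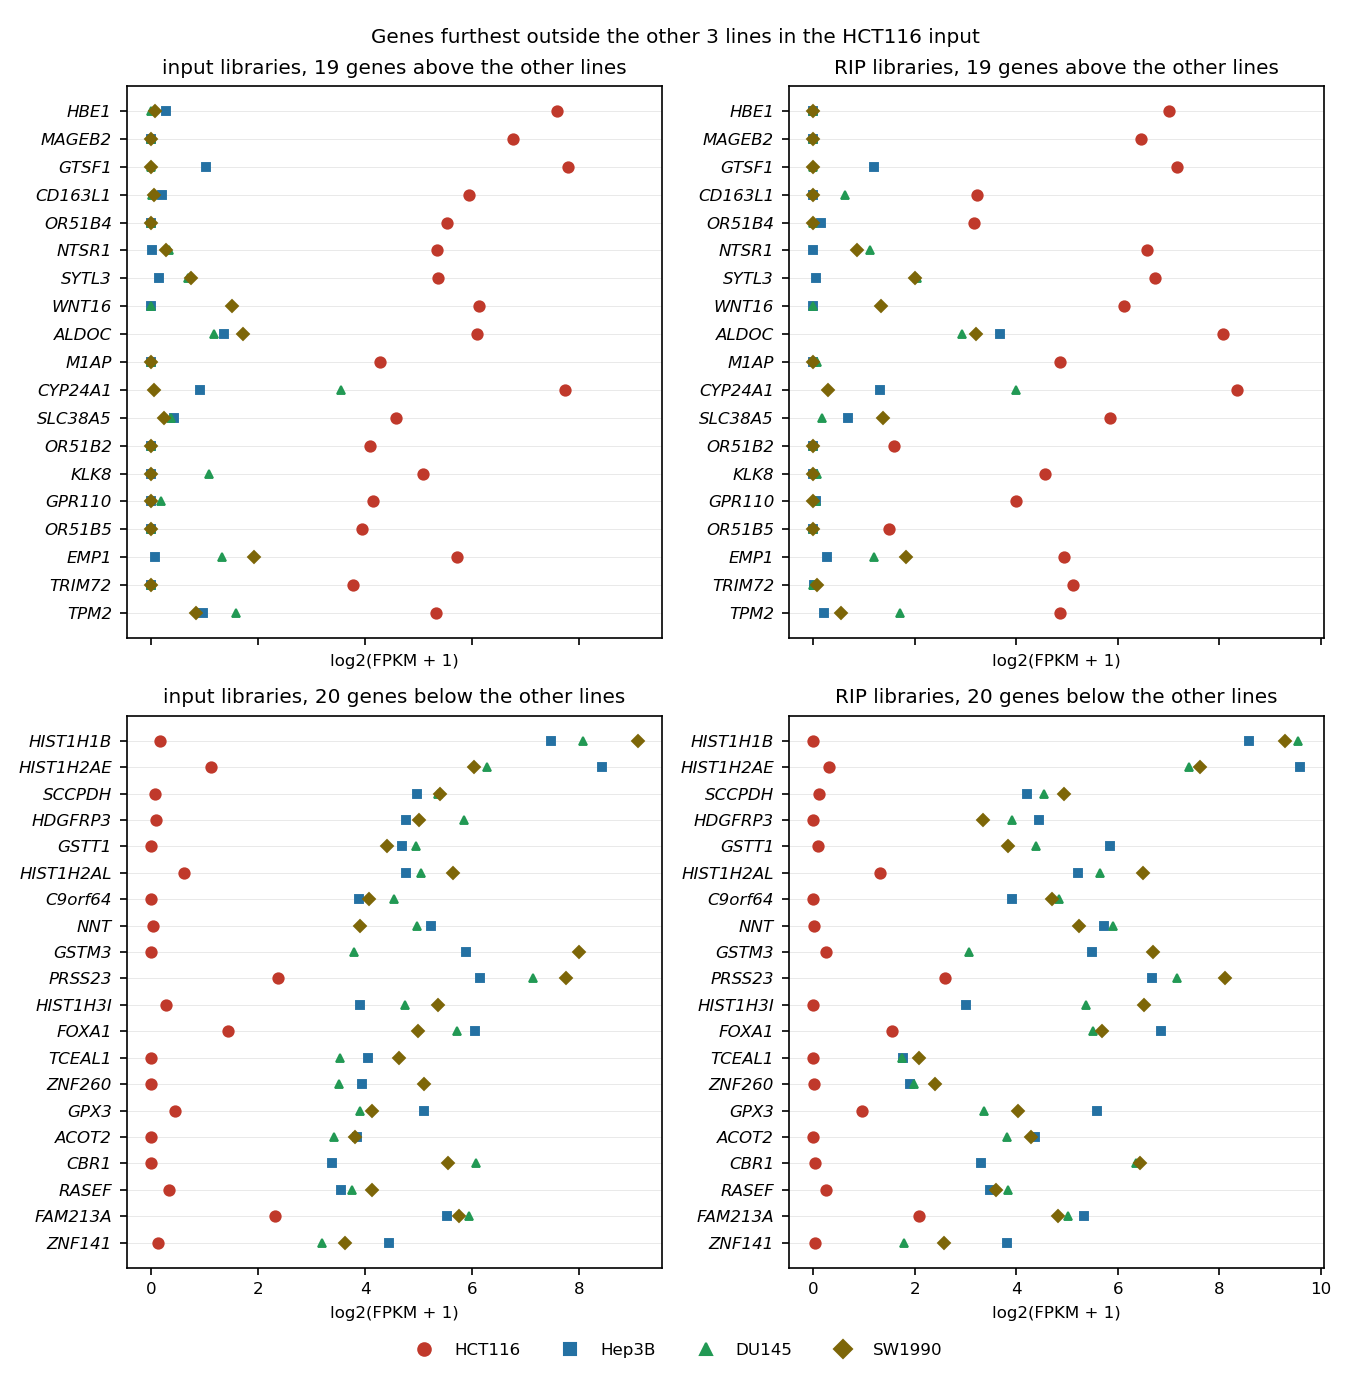
Levels of 19 protein-coding genes furthest above (top) and 20 furthest below (bottom) the other 3 lines in the HCT116 input, as log2(FPKM + 1) in the input libraries (left) and RIP libraries (right), 1 point per library. HCT116 lies to the right of all other points in the upper panels and to the left of them in the lower panels, a side that the choice of genes fixed.

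The genes furthest below the other lines included 4 histone genes, although histone genes as a family were more often high in HCT116. HIST1H1B, a linker histone, had 0.125 FPKM (4 fragments) in the HCT116 input, 177 in Hep3B, 268 in DU145, and 544 in SW1990. It had 0 FPKM in the HCT116 RIP library and between 382 and 743 in the other 3, and its log2 difference in the 8-library fit was -8.59. Its neighbours on chromosome 6 behaved alike: HIST1H2AL had 0.532 FPKM against 26.2 to 48.8, and HIST1H3I had 0.211 against 14.0 to 40.1. HIST1H2AL had a log2 difference of -4.50 in the 8-library fit. HIST1H2AE, a core histone in another part of the cluster, had 1.18 FPKM against 341 in Hep3B, 76.7 in DU145, and 64.4 in SW1990.

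GSTT1, a glutathione transferase, was at 0 FPKM in HCT116 and between 20.2 and 29.8 in the others, which were at least 209-fold above the floor. GSTM3, another glutathione transferase, had 0.00454 FPKM against 57.9, 12.9, and 254. GPX3, a secreted glutathione peroxidase, had 0.369 FPKM against 33.3, 14.0, and 16.5, and CBR1, a carbonyl reductase, had 0 against 9.46, 66.3, and 45.6. All 4 genes were thus low or at 0 in HCT116, while the other lines lay close together for GSTT1 and further apart for GSTM3 and CBR1. NNT, the mitochondrial transhydrogenase that forms NADPH, had 0.0327 FPKM from 6 fragments in HCT116, against 36.3 in Hep3B, 30.2 in DU145, and 14.0 in SW1990, a ratio of 428 for the lowest of them. Its antisense lncRNA NNT-AS1 had 1.20 FPKM against 6.68 to 14.0, and because NNT and NNT-AS1 share a deposited locus and the use of strand in counting is not stated, reads of the 2 cannot be told apart. FAM213A, a redox protein of the peroxiredoxin type, had 4.01 FPKM against 45.2 to 59.9. ACOT2, a mitochondrial acyl-CoA thioesterase, was at 0 in HCT116 and between 9.65 and 13.4 FPKM in the others, and its close relative ACOT1 was also at 0, with 3.27 to 6.77 FPKM in the others. Reads of these near copies can be confused.

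The remaining genes of this group had various roles. FOXA1, a pioneer transcription factor of endoderm, had 1.71 FPKM in HCT116, 65.2 in Hep3B, 51.8 in DU145, and 30.9 in SW1990, and its RIP levels were 1.94, 115, 44.9, and 50.9. SCCPDH, a membrane protein of lipid droplets, had 0.0511 FPKM against 30.3 to 41.2, with a log2 difference of -4.81 in the 8-library fit. PRSS23, a serine protease, had 4.20 FPKM against 69.3 to 215, with a log2 difference of -4.67 in the same fit. All other inputs lay above HCT116 for each, a side that the choice of genes fixed. C9orf64 and TCEAL1 were at 0 FPKM in HCT116, in both library types, and between 10.5 and 23.8 in the other inputs. HDGFRP3 had 0.0659 FPKM against 26.1 to 56.1, and RASEF, a RAB family GTPase, had 0.262 against 10.8 to 16.4. ZNF260 and ZNF141, zinc finger proteins, had 0.00804 and 0.0977 FPKM against at least 8.18 in any other line. Among lncRNAs, TP53TG1 had 0.0582 FPKM against 9.63 to 22.5, HOXD-AS1 had 0.0817 against 2.97 to 7.31, ST20 1.88 against 16.6 to 27.5, and MIR22HG 1.14 against 6.54 to 13.9.

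Some genes lay outside the other lines together with the gene that starts beside them. TP53TG1 starts head to head with CROT, which encodes a peroxisomal carnitine acyltransferase, and CROT was at 0 FPKM in HCT116 against 13.7 in Hep3B, 4.92 in DU145, and 5.88 in SW1990. TTC13 and ARV1, a regulator of sterol transport, also start head to head, and had 1.96 and 2.52 FPKM in HCT116 against at least 13.2 and 11.3 elsewhere. In the other direction the histone genes HIST3H2A and HIST3H2BB had 453 and 241 FPKM in HCT116 and at most 50.4 and 33.5 in the others. RefSeq on GRCh38.p14 placed 171, 232, and 229 bases between the starts of these pairs. The sequences between the starts are shown because both genes of each pair were outside the other lines, on the strand of the first gene of the pair (minus), with CpG dinucleotides in capitals. They come from 7:87345493-87345663, 1:230978862-230979093, and 1:228457874-228458102 and hold 20, 20, and 14 CpG dinucleotides.
TP53TG1 and CROT: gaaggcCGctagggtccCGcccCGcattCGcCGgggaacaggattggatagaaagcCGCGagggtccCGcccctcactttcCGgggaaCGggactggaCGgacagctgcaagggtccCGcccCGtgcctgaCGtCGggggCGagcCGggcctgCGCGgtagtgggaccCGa
TTC13 and ARV1: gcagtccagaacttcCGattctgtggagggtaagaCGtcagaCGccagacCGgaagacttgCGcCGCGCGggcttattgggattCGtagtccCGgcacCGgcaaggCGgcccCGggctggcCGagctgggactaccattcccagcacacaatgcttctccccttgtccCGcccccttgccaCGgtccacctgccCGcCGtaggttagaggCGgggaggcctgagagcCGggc
HIST3H2A and HIST3H2BB: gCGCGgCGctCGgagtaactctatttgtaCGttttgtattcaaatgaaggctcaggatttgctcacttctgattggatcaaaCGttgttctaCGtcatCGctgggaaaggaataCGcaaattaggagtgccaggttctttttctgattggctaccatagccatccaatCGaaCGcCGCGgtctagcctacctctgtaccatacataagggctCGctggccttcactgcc

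Among 789 such pairs of members, whose starts diverge and lie at most 1000 bases apart, 63 genes were at least 2-fold below the other lines. The partner was lowest in HCT116 for 36 of the 63 (57.1%), while 32.7% of all 1578 genes in pairs were lowest. For 23 genes at least 2-fold above, the partner was highest for 14 (60.9%), against 16.6% of the genes in pairs. In 6 pairs both genes were at least 2-fold below and in 5 pairs both were above. ATG12, which acts in autophagy, and AP3S1, a subunit of a clathrin adaptor, were such a pair, with 187 and 1213 FPKM in HCT116 against at most 57.0 and 363 in the others. Some pairs joined genes of the same family, such as HIST1H2AJ and HIST1H2BM above, and ZNF569 and ZNF570 below. Histone genes were often high and ZNF genes often low in the HCT116 input as families. The shares of partners were not separated from these family differences. Counts of partners that overlap may share reads, and no test was made of the shares.

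The intestinal transcription factors were not a high group in HCT116. Of 22 members, HCT116 was highest for 2 (9.09%) and lowest for 6 (27.3%), against 16.6% and 25.1% of all genes. None was at least 2-fold above, and 2 were at least 2-fold below. The median difference was -0.59 against -0.21 over all 20367 genes. FOXA1, described above, was among those below. KLF4, a factor of differentiating epithelium, and ELF3, an epithelial ETS factor, were highest in HCT116 with 9.74 and 52.8 FPKM, against at most 4.58 and 42.4. Without SW1990, HCT116 was highest for 5 and lowest for 6 of the 22, with a median difference of -0.03, and CDX2 was then highest in HCT116. Without Hep3B it was highest for 7 and lowest for 7 (median -0.23), and without DU145 for 2 and 11 (median -1.06), so the counts depended on each of the other lines. Of 34 intestinal surface and secreted products only 15 reached 1 FPKM in any input, and 4 did in HCT116. CA2, a carbonic anhydrase, had 25.3 FPKM against 1.67 to 8.95, and USH1C, a scaffold of the brush border, had 5.67 against 0.592 to 2.20. These 2 were at least 2-fold above, and the median of the list was -0.85. Without SW1990, HCT116 was highest for 3 and lowest for 3 of the 15.

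Epithelial and mesenchymal genes were both partly high in HCT116. Of 26 keratin and junction genes, HCT116 was highest for 6 and lowest for 3, with a median of 0.79, and without SW1990 for 13 and 5. SW1990 was itself highest for 11 of the 26. KRT19, a keratin of simple epithelia, had 570.3 FPKM in HCT116, 141 in Hep3B, 85.8 in DU145, and 229 in SW1990. CDH1, the gene of E-cadherin, was on the other side, with 8.40 FPKM against 40.8, 32.7, and 26.2, and so was the tight junction gene CLDN1, with 0.1001 FPKM against 479, 29.2, and 1.72. In the RIP libraries CDH1 had 35.9 FPKM in HCT116 against 76.4 to 107. Of 16 mesenchymal genes, HCT116 was highest for 6 and lowest for 2, and 4 were at least 2-fold above, while DU145 was also highest for 6. Over all genes 16.6% were highest and 3.39% at least 2-fold above. Without DU145, HCT116 was highest for 9 of the 16, with 8 at least 2-fold above. CD44, the hyaluronan receptor, had 196 FPKM in HCT116, 0.2999 in Hep3B, 62.1 in DU145, and 34.7 in SW1990. SNAI1, a repressor of E-cadherin, had 8.35 FPKM against at most 2.22, TWIST1 had 1.39 against 0 in all others, and COL1A1, a collagen, had 4.29 against at most 1.25. VIM, the mesenchymal filament gene vimentin, was at 1.91 FPKM in HCT116, and TGFBI, a matrix protein induced by TGF-beta, was at least 2-fold below, with 0.144 against 174, 44.3, and 1.803. Without SW1990, HCT116 was highest for 6 and lowest for 5 of the 16.

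Wnt ligands and receptors were mixed. Of 41 ligands, receptors, and intracellular components, HCT116 was highest for 8 and lowest for 8 (19.5% each), with a median of 0.00. Over all genes 16.6% were highest and 25.1% lowest. Without SW1990, HCT116 was highest for 10 and lowest for 12 of the 41. The 5 at least 2-fold above (12.2%, against 3.39% of all genes) were 4 ligands, WNT16, WNT10B, WNT9A, and WNT6, and the receptor ROR2. WNT10B had 7.31 FPKM against at most 2.22, ROR2 had 6.45 against at most 0.339, WNT9A 2.69 against at most 0.806, and WNT6 1.19 against at most 0.0883. LRP5, a Wnt coreceptor, was the 1 gene below, with 13.4 FPKM against 28.4 to 66.5. CTNNB1, which encodes beta-catenin, was within the range of the others (57.8 FPKM against 27.7 to 70.5). Of 28 Wnt target and feedback genes, HCT116 was highest for 5 (17.9%) and lowest for 7 (25.0%), shares close to those of all genes, with a median of -0.53. FGF19, a growth factor of the intestine, was at least 2-fold above with 9.13 FPKM against at most 3.49, and LGR4, a receptor for R-spondin, was below with 4.34 against at least 12.2. CCND1 and MYC, which drive proliferation, were highest in HCT116 with 214 and 102 FPKM, against 140 and 84.2 in SW1990, and LGR5, the intestinal stem cell marker, was at 0. Without SW1990, HCT116 was highest for 10 and lowest for 8 of the 28.

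Genes of the p53 pathway were often highest in HCT116 and as often in SW1990. HCT116 was highest for 17 of 40 (42.5%, against 16.6% of all genes) and lowest for 3, and the median difference was 0.77. SW1990 was likewise highest for 17 of the 40. KITLG, the ligand of the KIT receptor, had 572 FPKM in HCT116, 7.13 in Hep3B, 23.1 in DU145, and 63.9 in SW1990, 8.95-fold above SW1990. PMAIP1, a proapoptotic gene, had 46.0 FPKM against 0.0868, 12.9, and 13.2, and the kinase gene PLK3 had 20.4 against 3.00, 3.81, and 9.61. SERPINB5 had 9.48 FPKM against at most 1.13. MDM2, the ligase that degrades p53, had 240.4 FPKM in HCT116 against 95.5 to 115 in the other inputs, but 40.5 against 41.6 to 58.7 in the RIP libraries, where HCT116 was lowest. CDKN1A, the inhibitor of the cell cycle p21, had 154 FPKM in HCT116 and 124 in SW1990, and 4.72 and 13.0 in Hep3B and DU145. HCT116 was lowest for TP53I3, TNFRSF10B, and TRIM22, and without SW1990 it was highest for 26 of the 40. Over all genes the same omission gave 5751 of 20367 highest in HCT116, in place of 3387. No gene of the list passed edgeR.

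Mismatch repair genes were low or within range in the HCT116 input. HCT116 was highest for 0 of 12 and lowest for 5 (41.7%), with a median of -0.27. Over all genes 16.6% were highest and 25.1% lowest, with a median of -0.21. After centring on protein-coding genes it was highest for 3 and lowest for 4, and in the RIP libraries it was highest for 5 and lowest for 5. At least 2-fold below the other lines were 2 of the 12, and 1 after rescaling to the same summed FPKM. MSH3 and MLH3 were lowest in HCT116 with 2.65 and 10.8 FPKM, against at least 4.45 and 10.9. MSH6, a subunit of the mismatch recognition complex, was lowest in the inputs (13.9 FPKM against 15.1 to 25.9) and highest in the RIP libraries (42.4 against 8.74 to 23.6).

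**Figure D4:**
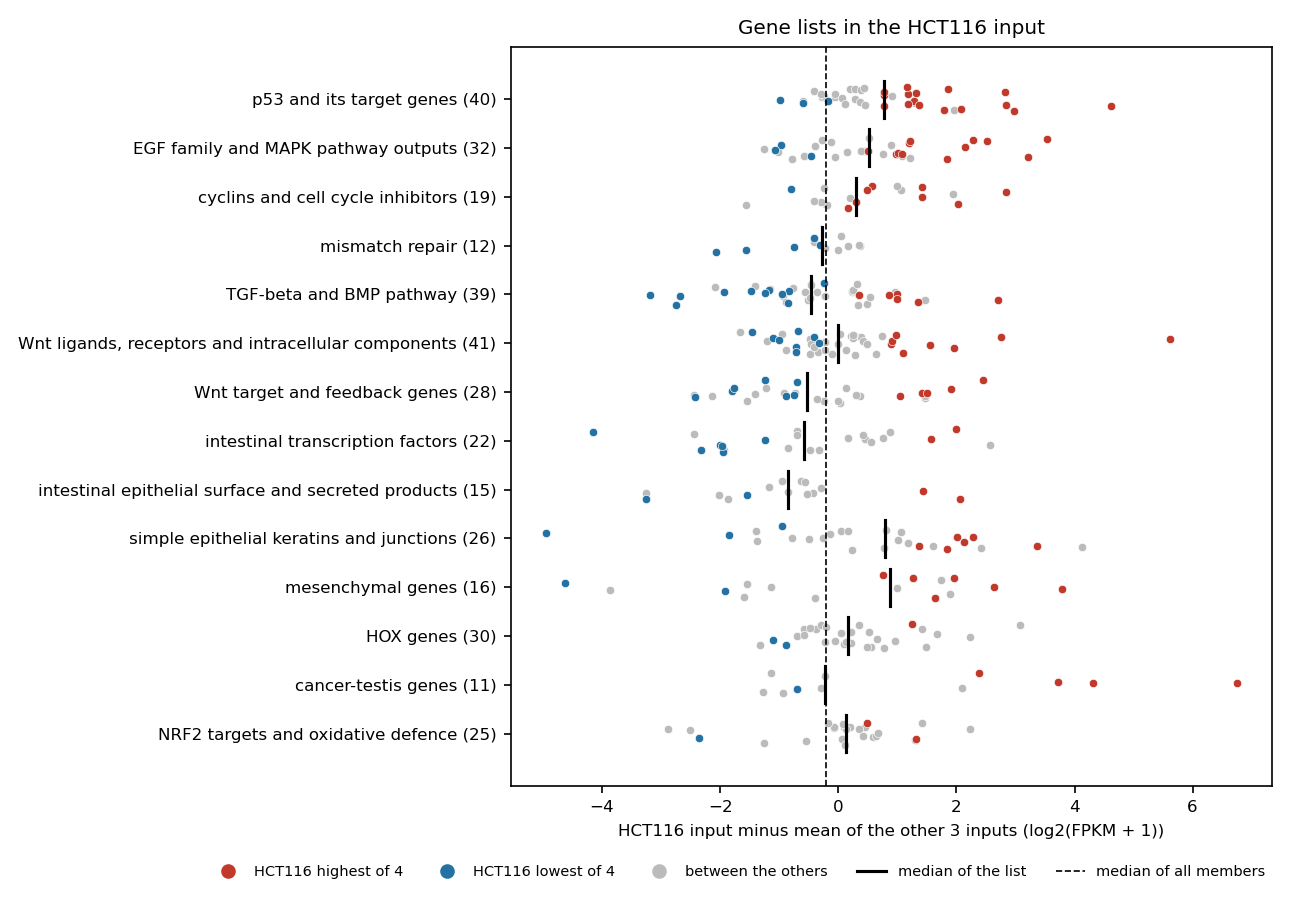
Difference of the HCT116 input from the mean of the other 3 inputs, in log2(FPKM + 1), for the members of 14 gene lists (number of members in brackets), 1 point per gene, coloured by whether HCT116 was highest (red) or lowest (blue) of the 4 inputs. Short bars mark the median of each list and the dashed line that of all 20367 genes (-0.21), and the p53 list has 17 of 40 genes and the list of cyclins and inhibitors 8 of 19 highest in HCT116.

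Outputs of the MAPK pathway were high in part in the HCT116 input, and less so in its RIP library. Of 32 genes of the EGF family and MAPK pathway, HCT116 was highest for 12 and lowest for 3, with a median of 0.52, against 16.6% highest and 25.1% lowest over all genes. In the RIP libraries HCT116 was highest for 8 and lowest for 5, with a median of 0.11. There 18.2% of all genes were highest and 24.4% lowest, with a median of -0.13. Among the inputs, DU145 was highest for 13 of the 32. Without DU145, HCT116 was highest for 17, and 8 genes in place of 4 were at least 2-fold above. Over all 20367 genes the same omission gave 5023 highest in place of 3387 and 1201 above in place of 690. The 4 genes at least 2-fold above were feedback inhibitors or early response genes. DUSP4, a phosphatase of ERK, had 29.5 FPKM against 1.57, 2.002, and 3.64, and DUSP5, a related phosphatase, had 64.1 against 0.439, 27.6, and 3.29. SPRY4, an inhibitor of receptor signalling, had 29.8 FPKM against at most 7.61, and IER3 had 400.5 against 117, 114, and 54.5. Of 19 cyclins and cell cycle inhibitors, HCT116 was highest for 8 and lowest for 1, with MTAP, which lies beside CDKN2A, at least 2-fold above (116 FPKM against 25.4 to 31.3).

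TGF-beta genes were highest or lowest in the HCT116 input about as often as all genes, but their median was lower. Of 39 genes of the TGF-beta and BMP pathway, HCT116 was lowest for 11 (28.2%, against 25.1% of all genes) and highest for 6 (15.4%, against 16.6%). The median was -0.47 against -0.21 over all genes. In the RIP libraries HCT116 was lowest for 15 and highest for 4, with a median of -0.77. There 24.4% of all genes were lowest and 18.2% highest, with a median of -0.13. Among the inputs, SW1990 was lowest for 17 of the 39. TGFB2, a ligand, had 0.0649 FPKM against 8.6, 10.9, and 6.82, a ratio of 105 for the lowest of them. BMP7, a ligand of the BMP branch, was on the other side with 5.64 FPKM against at most 0.0377. The receptor gene TGFBR2 had 9.38 FPKM in HCT116, 32.0 in Hep3B, 41.2 in DU145, and 9.54 in SW1990, so that HCT116 and SW1990 were nearly level. CTGF, SMAD7, and CYR61, which TGF-beta or YAP signalling induces, were lowest in HCT116 with 0.593, 1.40, and 3.69 FPKM. ID1, a target of BMP signalling, was highest with 381 FPKM against at most 249. Without SW1990, HCT116 was lowest for 18 of the 39 and highest for 7, without DU145 lowest for 15 and highest for 12, and without Hep3B lowest for 11 and highest for 10 (median -0.05).

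The counts of oxidative defence and HOX genes changed when 1 other line was left out, as did those of all genes. Of 25 NRF2 targets, HCT116 was highest for 2 and lowest for 1, ABCC3, an organic anion pump, with 4.33 FPKM against 16.9 to 56.1. DU145 was highest for 14 of the 25. Without it HCT116 was highest for 12, with 2 at least 2-fold above, 2 below, and a median of 0.53 in place of 0.14. Over all 20367 genes, leaving out DU145 raised the number highest in HCT116 from 3387 to 5023. Those at least 2-fold above rose from 690 to 1201, and the median moved from -0.213 to -0.169. Of 30 HOX genes, HCT116 was highest for 1 and lowest for 2, and 0 were at least 2-fold outside. SW1990 was highest for 20 of the 30. Without it HCT116 was highest for 17, with 6 at least 2-fold above and a median of 0.997 in place of 0.167. Over all 20367 genes, leaving out SW1990 raised the number highest in HCT116 from 3387 to 5751. Those at least 2-fold above rose from 690 to 1400, and the median moved from -0.213 to -0.155. COL1A1 was the single fibroblast, blood, or endothelial marker above the other lines, with the blood marker HBB at 0.

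Gene families also stood apart, and in different directions. The 13 mitochondrially encoded protein genes, which encode subunits of the respiratory chain, were all at least 2-fold below in the HCT116 input (median difference -3.48), and 10 of 13 were lowest in the RIP library. Mitochondrially encoded RNA held 0.471% of HCT116 input fragments (95% Wilson interval 0.469 to 0.473%), 2.27% of Hep3B, 5.001% of DU145, and 2.98% of SW1990 input fragments. In the RIP libraries it held 0.0183% in HCT116, 0.255% in Hep3B, 0.325% in DU145, and 0.0745% in SW1990. MT-CO1, a subunit of cytochrome oxidase, had 1659 FPKM in HCT116 against at least 6511. Histone cluster genes had the opposite pattern on average: of 76 members, 49 were highest in HCT116 and 13 lowest, with a median of 1.18. Over all genes 16.6% were highest and 25.1% lowest. Histone genes held 1.16% of HCT116 input fragments (interval 1.16 to 1.17%) against 0.464 to 0.583% in the others. In the RIP libraries the order was reversed, with 9 highest and 27 lowest, a median of -0.44, and 0.496% of fragments against 0.720 to 0.908%. There 18.2% of all genes were highest and 24.4% lowest. The half-width of the interval was at most 0.0058 percentage points in any library. Intervals and floors cover counting error only, since sequenced fragments are not independent molecules. Without mitochondrially encoded genes, 690 genes were at least 2-fold above and 583 below.

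Zinc finger genes of the ZNF series, most of which encode repressors, were low in HCT116. Of 493 members, 238 were lowest and 39 highest, and 47 were at least 2-fold below, with a median of -0.51. Over all 20367 genes, 25.1% were lowest, 16.6% highest, and 2.96% at least 2-fold below, with a median of -0.21. In the RIP libraries 176 of the 493 were lowest and 50 highest, with a median of -0.36. There 24.4% of all genes were lowest and 18.2% highest, with a median of -0.13. On chromosome 19, where many of them lie in clusters, 137 of 239 were lowest and 34 at least 2-fold below. ZNF331 had 0 FPKM in HCT116 against 22.5, 21.5, and 3.73, ZNF140 had 0 against 10.9, 7.01, and 14.7, and ZNF718 had 0 against 25.9, 10.8, and 5.77. After rescaling, 192 of the 493 were lowest, with a median of -0.41, against 3830 of all 20367 genes and a median of -0.11.

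**Figure D5:**
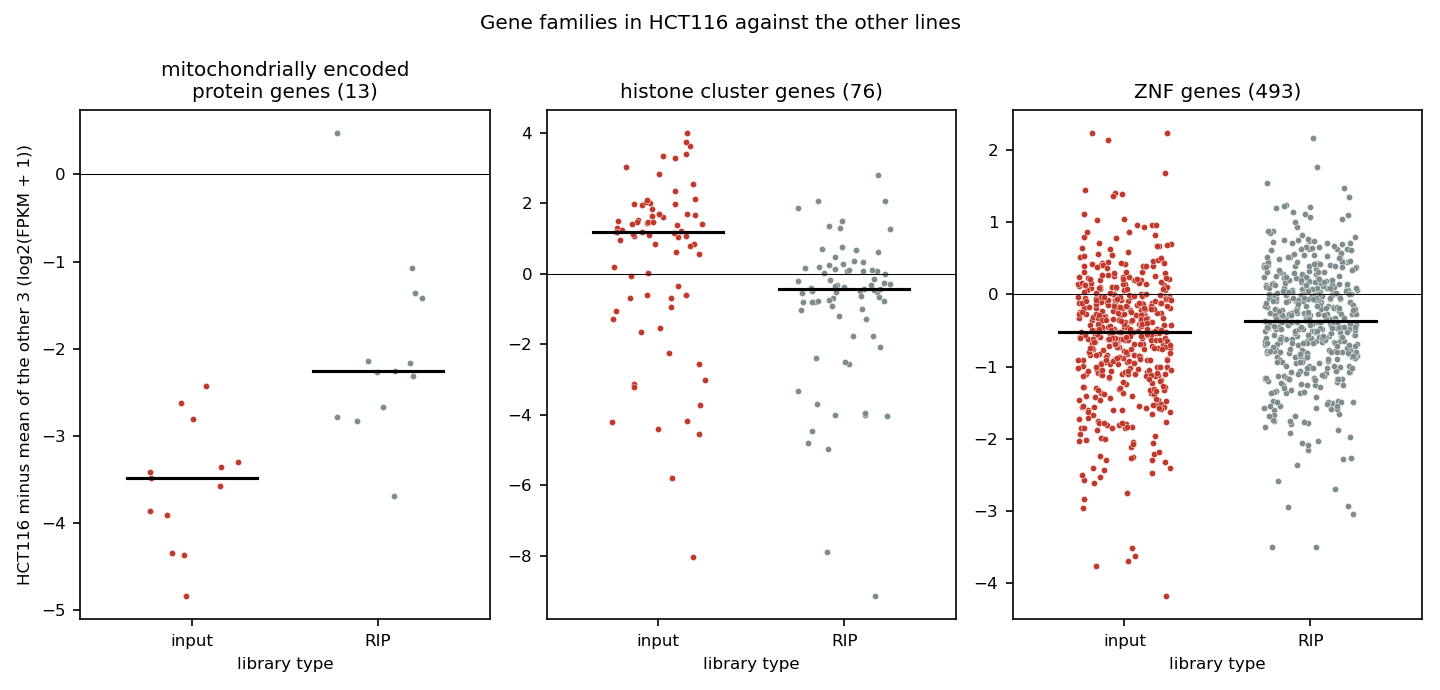
Difference of HCT116 from the mean of the other 3 lines, in log2(FPKM + 1), for 13 mitochondrially encoded protein genes, 76 histone cluster genes, and 493 ZNF genes, 1 point per gene, in the input libraries (red) and RIP libraries (grey), with bars at the medians. Mitochondrial genes lie below 0 in the inputs (median -3.48), histone genes have an input median of 1.18 and a RIP median of -0.44, and ZNF genes have a median of -0.51 in the inputs.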

How the data were processed

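Input and RPS6 RIP libraries of 4 cell lines were sequenced, 1 of each per line. The study's methods state alignment to hg19 with TopHat (TopHat2 2.0.9 and CASAVA 1.8 in the submitters' processing notes). Sources differ on the sequencer. The counting tool, annotation, filters, and use of strand are not given in the sources used here. The authors deposited FPKM, normalized for length and depth, and estimated counts, scaled by 1 factor per library, so that they need not be whole. The deposited fold changes, p-values, and q-values compare each RIP library with its input and were not used. All columns of values per sample had a sample.

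The members and gene lists were chosen with earlier results of these data known. The design assumed counts, and the deposited expected counts were rounded to whole numbers for edgeR 4.0.16 (R 4.3.3) with TMM, a mean of at least 10 counts, Benjamini-Hochberg adjustment, and a threshold of 0.05. Values between lines were compared as log2(FPKM + 1). Folds are ratios of FPKM, given where both libraries had more than 3 fragments, and bounds use 3 fragments per library. Fragments were recovered by dividing estimated counts by the step common to a library, which made 92.4% to 93.9% of values above 0 whole. Genes named are the 20 protein-coding genes and 5 lncRNAs furthest outside the other inputs in each direction and on the same side in the RIP libraries, and genes of fixed lists that were at least 2-fold outside or whose level the list is about. Some genes that met this rule are not reported here. Genes named beside these (partners, neighbours, examples of families) were chosen after their values were seen. RefSeq symbols of GRCh38.p14 matched 33678 genes, its promoters 39 of 50 named genes, and coordinates of genes are those of the hg19 tables. Alternatives used DESeq2 1.42.0, limma 3.58.1, other filters, pseudocounts, and scalings, and left out each other line. Recovered fragments and omission of mitochondrial genes were added after the data were seen. The edgeR and gap steps were tested on simulated data. Python 3.11.15, NumPy 2.4.6, pandas 2.3.3, and matplotlib 3.10.9 were used.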

Additional observations from a re-analysis of the deposited data

Results flagged for a closer look

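Some histone genes were on opposite sides in the input and RIP libraries. Of 49 histone cluster genes highest in the HCT116 input, 11 were lowest in the HCT116 RIP library, while 134 of all 3387 genes highest in the input were (3.96%). HIST1H3B, a core histone, had 1138 FPKM in the HCT116 input against 651, 583, and 258, and 574 FPKM in the RIP library against 685, 944, and 729 in Hep3B, DU145, and SW1990. HIST1H2BO had 1262 FPKM against at most 652 in the inputs and 565 against at least 883 in the RIP libraries. HIST2H4A and HIST2H4B are among the 11 and are near copies whose reads can be confused. HIST2H2AA3 and HIST2H2AA4, also among them, are another such pair. The difference between library types was not tested.

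Only 3 genes were at least 2-fold outside the other lines in opposite directions. SNORA30 and SNORA46, small nucleolar RNAs, had 3.46 and 2.58 FPKM in the HCT116 input and 0 in the other inputs, and 0 in the HCT116 RIP library against at least 5.25 and 4.95 in the others. AC097382.1 was at 0 in the HCT116 input against at least 4.66, and at 7.30 FPKM in the HCT116 RIP library against 0. These differences were not tested either.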

How the results depend on the processing

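edgeR called 0 genes in either direction under every filter, with recovered fragments (334 higher and 295 lower at an unadjusted p under 0.05), without mitochondrial genes, and with each other line left out (range 0 to 0 for inputs and RIP libraries), and limma on the 4 inputs called 0 with both pseudocounts. DESeq2 called 90 genes higher and 476 lower in the input, and 70 higher and 451 lower in the RIP library. The 8-library limma fit called 6 higher and 4 lower of 20367 genes tested. It took input and RIP libraries of the same cells as observations, and these are not replicates. Its calls therefore cannot be read as differences between lines. With a pseudocount of 0.1, 909 genes were at least 2-fold above and 1441 below, in place of 690 and 603. With at least 5 FPKM in any input, 440 were above and 527 below. Rescaling each library to the same summed FPKM gave 693 and 444, of which 619 and 384 were shared with the main counts, and centring on protein-coding genes gave 761 and 518 (664 and 498 shared). The share above among genes outside the other lines was 53.4%, and 38.7% with the pseudocount of 0.1, 60.9% after rescaling, and 59.5% after centring. The cause was not tested. Leaving out a line, which kept all 690 and 603, gave 942 to 1400 above and 1137 to 1432 below, with the largest counts without SW1990 (1400 and 1432), and 942 and 1143 without Hep3B and 1201 and 1137 without DU145. Of 510 recomputed differences of 85 named genes, 430 moved by less than the spread between the other lines, 80 moved by more (59 of them with the pseudocount of 0.1), and 0 changed sign. No paired analysis was possible because each line has 1 input library and the comparison is between lines. With 1 library of HCT116, a value cannot be separated from that library, and genes under 3 fragments were not detectable at this depth.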

Other observations

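The share of genes outside the other lines differed between chromosomes, which was not tested. The chromosomes named here were picked for extreme shares after the values were seen. Over protein-coding members, 3.51% were at least 2-fold above and 2.73% below. Chromosome 10 had 31 of 529 above (5.86%) and 8 below (1.51%), chromosome 21 had 1 of 126 above and 7 below (5.56%), and chromosome 19 had 52 of 1012 in each direction (5.14%). Runs of neighbouring genes on the same side are named here after their values were seen. On chromosome 19 (hg19), HKR1, ZNF527, ZNF570, and ZNF569 (19:37803738-37976260) and ZNF471, ZFP28, ZNF470, and ZNF71 (19:57019211-57137849) were at least 2-fold below. On the X chromosome, TCEAL4, TCEAL1, and TCEAL3, which encode small nuclear proteins, were below, with 3.45, 0, and 0.0526 FPKM in HCT116 against at least 8.50, 10.5, and 1.20 in the others. MAGEA2, CSAG2, and MAGEA3 were above together, and their near copies can share reads.

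On chromosome 6, HIST1H2AI, HIST1H3H, HIST1H2AJ, HIST1H2BM, HIST1H4J, and HIST1H4K (6:27775898-27799305) were above, while HIST1H2AL, HIST1H1B, and HIST1H3I (6:27833033-27840099) were below. HIST1H2AJ had 902 FPKM in HCT116, 13.9 in Hep3B, 209 in DU145, and 252 in SW1990. PSMB9, an immunoproteasome subunit, and TAP1, a peptide transporter for antigen presentation, start head to head and were both highest in HCT116, with 13.1 and 12.7 FPKM against at most 4.52 and 9.24. TNNT1, a troponin of slow muscle, had 72.8 FPKM against at most 8.26.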
